A study of Bos taurus with 12 samples.

Results

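The MEF2 genes encode MADS-box transcription factors that bind A/T-rich elements in the control regions of many muscle genes. They act with the myogenic factors of the MyoD family, are held inactive by class IIa histone deacetylases, and are released by calcium and p38 kinase signalling. In skeletal muscle they are best known for switching on structural and metabolic genes of the fibre once myoblasts leave the cell cycle. The rows described here are 4 of the gene expression table, MEF2A, MEF2C, MEF2D and ENSBTAG00000050008, an unnamed gene that lies downstream of MEF2C, together with the m6A peaks annotated to them. These are 4 of 18436 genes, 4 of 19739 peaks in GM and 7 of 20790 peaks in DM. The rows were taken by gene name or gene identifier, and they were chosen from this series with their change in expression already known, so their levels are given as a description with no test.

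The samples were primary skeletal myoblasts taken at birth from a back muscle, the longissimus dorsi, of Qinchuan cattle. Proliferating myoblasts at 80% confluence in growth medium with 20% fetal bovine serum form the GM group, and myotubes after 4 days in differentiation medium with 2% horse serum form the DM group. Each group has 3 input libraries and 3 libraries immunoprecipitated with an m6A antibody, 12 in all, and no drug or genetic change was used in either group. The methods name a newborn animal, so the 3 libraries of a group may share a donor, and p-values then measure the spread between cultures or preparations only. Expression is given in FPKM, which scales the fragments of a gene by transcript length and library size, from the 6 input libraries. Because FPKM is per length, levels of different genes can be set side by side, but only roughly. The transcript lengths used enter each value, and ENSBTAG00000050008 spans only 309 bases.

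FPKM sums were 415740 to 434458 in the GM input libraries and 386436 to 390827 in the DM input libraries, so every DM sum was lower. The 6 libraries had 12155 to 12303 genes at 0.5 FPKM or more, and no library repeated another. Skeletal muscle markers were present in both groups, with MYOD1 at 61.6 FPKM in GM and 24.8 in DM and desmin at 453 and 488. The summed level of 10 skeletal muscle markers was 1126 to 1212 FPKM in GM and 1570 to 1622 in DM. By the call rule given further on, 3 of these 10 were higher in DM and 4 lower, with the embryonic myosin MYH3 at 273 and 659 FPKM and the actin ACTA1 at 110 and 70 in GM and DM. Fibroblast markers were abundant as well, with a summed level of 8 genes of 10323 to 10465 FPKM in GM and 11728 to 12308 in DM. COL1A1 had the highest mean among them in both groups, and 1 of the 8 was called, FAP, as higher in DM. The sum of 5 smooth muscle and pericyte markers was 2223 to 2695 FPKM in GM and 1785 to 2058 in DM. Endothelial markers (5 genes) summed to at most 0.746 FPKM, leukocyte markers (3 genes) to at most 1.96, adipocyte markers (6 genes) to at most 2.78, and neuron and glia markers (4 genes) to at most 4.48. In such bulk samples, fewer cells of a type and less RNA per cell cannot be told apart.

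MEF2C, a MEF2 factor needed for the muscle fibre programme, moved most of the family. Its gene lies at chr7:88250023-88407702 on the minus strand (ARS-UCD1.2, 4 annotated transcripts). MEF2C stood at 7.5, 8.04 and 7.84 FPKM in the GM libraries and at 71.2, 68.2 and 70.9 in the DM libraries. Every DM library was far above every GM library. The means were 7.79 ± 0.275 in GM and 70.1 ± 1.64 in DM (SD, n = 3 each), a ratio of 8.99. On the log2(FPKM + 1) scale used for all genes the difference was 3.02, and only 4 of the 12302 genes tested rose by more. Its level was above that of 65.6% of the 18436 genes in GM and of 95.6% in DM.

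MEF2A is the family member found in most tissues. Its gene lies at chr21:6860316-7041397 on the minus strand, with 4 annotated transcripts. MEF2A measured 16.9, 19.3 and 13.7 FPKM in GM and 22.3, 19.5 and 23.6 in DM. The groups did not overlap, but the highest GM library and the lowest DM library nearly met. The means were 16.6 ± 2.82 and 21.8 ± 2.07 FPKM (SD, n = 3 each), a ratio of 1.31 and a log2(FPKM + 1) difference of 0.38. That difference was 0.25 without the third GM library and 0.49 without the second GM library. MEF2A had the widest spread between replicates of the 4 genes.

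MEF2D, a broadly expressed member with an activating muscle isoform made by alternative splicing, lies at chr3:14329333-14359887 on the plus strand, with 4 annotated transcripts. It stood at 15.1, 15.2 and 18.2 FPKM in GM and at 16.2, 17.1 and 16.4 in DM. The groups overlapped, and the highest library was a GM library. The means were 16.1 ± 1.78 and 16.5 ± 0.491 FPKM (SD, n = 3 each), a ratio of 1.02. The log2(FPKM + 1) difference of 0.04 became -0.01 without the first GM library and 0.16 when FPKM was rescaled to TPM, so no direction is given for MEF2D. Gene-level FPKM does not separate its isoforms.

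MEF2B, the fourth gene of the family and not among the 4 rows, was near 0.5 FPKM, the lowest mean at which genes were tested. It stood at 0.51, 0.498 and 0.573 FPKM in GM and at 0.49, 0.436 and 0.68 in DM, and the groups overlapped. Of the 4 rows, MEF2C, MEF2A and ENSBTAG00000050008 had every DM library above every GM library, as did 21.1% of the 12302 tested genes. The choice of the rows used these values, and nothing is read from that count.

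**Figure D1:**
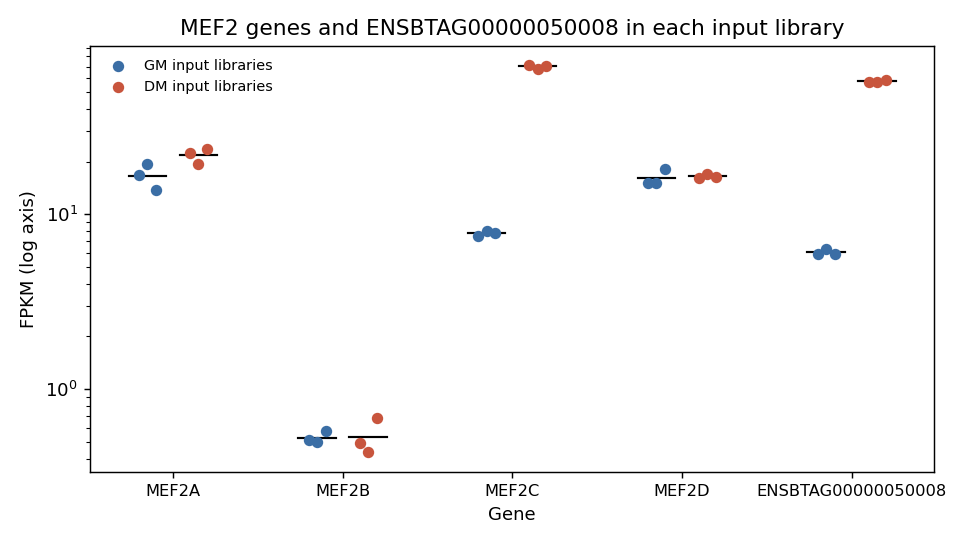
FPKM on a log axis of the MEF2 genes and ENSBTAG00000050008, with one point per input library (3 GM in blue, 3 DM in red) and a black line at each group mean. MEF2C and ENSBTAG00000050008 shift from 7.79 and 6.07 FPKM to 70.1 and 57.6, while MEF2A, MEF2B and MEF2D have ratios of 1.31, 1.02 and 1.02.

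The order of the family therefore differed between the groups. In GM, MEF2A and MEF2D had overlapping ranges at the top, MEF2C lay below both in every library, and MEF2B was lowest. In DM, MEF2C was highest, MEF2A followed, and MEF2D came after MEF2A in every library. The DM ranges of MEF2A (19.5 to 23.6 FPKM) and MEF2D (16.2 to 17.1 FPKM) did not overlap.

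Summed over MEF2A, MEF2B, MEF2C and MEF2D, the family reached 41.1 ± 1.69 FPKM in GM and 109 ± 3.27 in DM (SD, n = 3 each). MEF2C made up 19 ± 0.41% of that sum in GM, with a range of 18.7 to 19.4%, and 64.3 ± 0.671% in DM, with a range of 63.6 to 64.8%. MEF2A went from 40.4 ± 5.69% to 20 ± 1.32% of the sum, although its own FPKM was not lower in DM. MEF2D went from 39.4 ± 5.15% to 15.2 ± 0.904%. MEF2B was 1.28% of the sum in GM and 0.489% in DM. Without MEF2C, the other three genes summed to 33.3 ± 1.47 FPKM in GM and 38.9 ± 1.78 in DM (SD, n = 3 each).

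**Figure D2:**
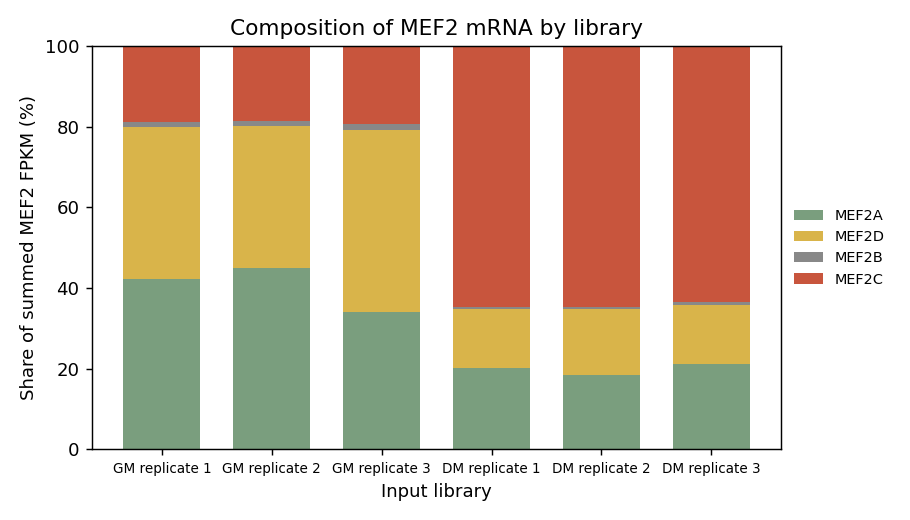
Share of the summed MEF2 FPKM (percent, vertical axis) held by each MEF2 gene in each of the 6 input libraries. MEF2C holds 18.7 to 19.4% in the 3 GM libraries and 63.6 to 64.8% in the 3 DM libraries.

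ENSBTAG00000050008 lies at chr7:88246936-88247244 on the minus strand, the strand of MEF2C. It spans 309 bases with 1 annotated transcript, and the table gives it no name and no functional annotation. It begins 2778 bases beyond the 3′ end of the MEF2C gene model. It stood at 5.94, 6.31 and 5.95 FPKM in GM and at 57.2, 57.3 and 58.3 in DM. Every DM library was again far above every GM library. The means were 6.07 ± 0.212 and 57.6 ± 0.597 FPKM (SD, n = 3 each), a ratio of 9.49 and a log2(FPKM + 1) difference of 3.05.

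Its level stood close to that of MEF2C in both groups, but the order of the DM libraries differed, since MEF2C was highest and ENSBTAG00000050008 lowest in the first of them. The ratio of ENSBTAG00000050008 to MEF2C, both in FPKM, was 0.793, 0.785 and 0.759 in the GM libraries and 0.804, 0.84 and 0.823 in the DM libraries. All 3 DM ratios were slightly above the 3 GM ratios, with means of 0.779 ± 0.0175 and 0.822 ± 0.0183 (SD, n = 3 each). Both genes changed about 9-fold while their ratio stayed between 0.759 and 0.84. Whether the row is a separate transcript or part of MEF2C transcripts that run past the annotated end was not tested.

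The other genes around the locus did not share the change. The nearest gene on the downstream side, ENSBTAG00000049876, starts 42 kb away and was listed at 0 in 5 libraries and at 0.0519 FPKM in the third DM library. TMEM161B, 429 kb away, averaged 4.25 FPKM in GM and 3.61 in DM (log2(FPKM + 1) difference -0.19, limma adjusted p = 0.146), and ENSBTAG00000022762, 949 kb away, was lower in DM (3.26 and 1.72 FPKM, log2(FPKM + 1) difference -0.63, limma adjusted p = 0.0144). On the upstream side of MEF2C the nearest gene of the table, ENSBTAG00000050847, is 1400 kb away and averaged at most 0.000307 FPKM in a group. CETN3, which encodes a centrin of the centrosome, is 1528 kb away and averaged 22 FPKM in GM and 21.8 in DM (limma adjusted p = 0.926). ENSBTAG00000049440, 1536 kb away, averaged at most 0.0213 FPKM in a group.

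To set the pair beside others like it, all unnamed tested genes were taken that lie within 5 kb downstream of a named tested gene on the same strand. There were 64 such pairs. The log2(FPKM + 1) differences of the partners in a pair were 0.25 apart at the median, with quartiles of 0.13 and 0.38, and those of MEF2C and ENSBTAG00000050008 were 0.04 apart. Including this pair, 4 of the 64 were that close. Both of its genes were chosen with their changes already known, so its place among the 64 is only a description. MEF2C was the only named gene of the 64 with a rise of more than 1 on that scale. In 7 pairs, that of MEF2C among them, the named gene passed the call rule used below. In 4 of these 7, again counting the MEF2C pair, the unnamed gene was called in the same direction. Among these 4 is also the pair of COL12A1, a fibril-associated collagen, with log2(FPKM + 1) differences of 0.97 for the named gene and 1.09 for its downstream neighbour. Over all 12302 tested genes the call rule gave 4.9% higher in DM and 6.97% lower, and nothing is read from these few pairs.

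**Figure D3:**
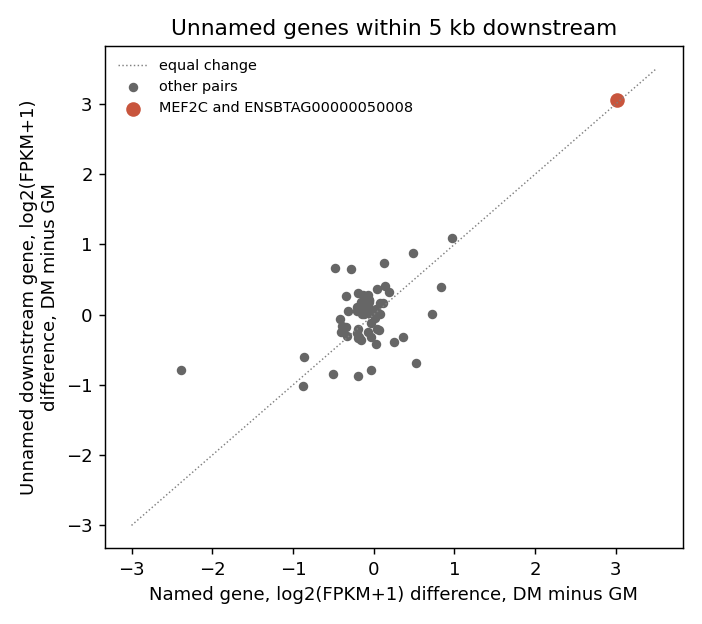
Change of the unnamed gene (vertical axis) against that of the named gene (horizontal axis) in 64 same-strand pairs up to 5 kb apart, both as log2(FPKM + 1) in DM minus GM, with the dotted line marking equal change. The pair of MEF2C and ENSBTAG00000050008 lies at 3.02 and 3.05, apart from the rest.

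The tested genes whose profiles were most like those of each row were found by the Euclidean distance of centred log2(FPKM + 1) values over the 6 input libraries. The nearest gene to MEF2C was ENSBTAG00000050008, at a distance of 0.0752, and the reverse also held. Next to MEF2C came C1R, a complement protease, at 0.187, with 2.26 FPKM in GM and 25.2 in DM, and PODN, an extracellular matrix proteoglycan, at 0.314, with 2.27 and 23 FPKM. The same genes followed for ENSBTAG00000050008. Nearest to MEF2A were MPP5 at 0.102, LONRF1 at 0.114 and RF00096 at 0.123. Nearest to MEF2D were KIAA2013 at 0.0626, ZNF513 at 0.0628 and SGSM3 at 0.0654. The distance from MEF2C to MEF2A was 3.25 and to MEF2D 3.66, and 6 libraries in 2 groups give such distances little beyond the size of the difference between the groups.

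m6A is a methyl mark on adenosine in mRNA, often placed near stop codons and in 3′ UTRs. The deposited peak lists, 1 for GM and 1 for DM, were made by the authors from merged replicate libraries, and the fold enrichment of a peak is the ratio of immunoprecipitated to input signal. Each peak therefore has 1 value per group with no replicate error, and no test between groups was made. A GM and a DM peak were paired when their exon blocks shared at least 1 base and neither overlapped another peak. A pair was counted as changed when its fold enrichment differed by more than 1.5 times.

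MEF2C carried a peak annotated to the 5′ UTR and a peak annotated to the 3′ UTR in both groups. The peak annotated to the 5′ UTR had 4 exon blocks with 450 bases at chr7:88329469-88407702 in GM and 5 blocks with 660 bases at chr7:88291969-88407702 in DM. The DM peak contained all of the GM peak and added a further exon block towards the 3′ side. Blocks of this peak run from the start of the gene to 78.2 kb in GM and to 116 kb in DM. Its fold enrichment was 2.66 in GM and 2.71 in DM, a ratio of 1.02. The peak annotated to the 3′ UTR covered 360 bases at chr7:88251011-88251370 in GM and 630 bases in 2 blocks at chr7:88250861-88257969 in DM. Its fold enrichment was 1.91 in GM and 2.44 in DM, a ratio of 1.28.

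Neither MEF2C pair passed the 1.5-fold limit, while the evidence for the peaks differed widely between groups. The log10 of the peak's p-value was -76.9 in GM and -832 in DM for the 5′ peak, and -9.29 and -162 for the 3′ peak. The input level of MEF2C was 8.99 times higher in DM, and the part of that level in the p-values and in the wider DM peaks was not tested. No peak base fell in ENSBTAG00000050008 in either list, and the nearest peaks were the 3′ peaks of MEF2C, 3766 bases away in GM and 3616 in DM. Of 95 genes that span at most 500 bases and average at least 10 FPKM in DM, 32 had a DM peak.

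MEF2A had 1 peak in GM and 3 in DM. The shared peak was annotated to the 3′ UTR and covered 480 exon bases in each group, at chr21:6863973-6865696 in GM and chr21:6863943-6865666 in DM, with 450 bases in common. Its fold enrichment was 4.01 in GM and 3.9 in DM, the highest of the 4 genes in both groups. The further DM peaks lay at chr21:6860316-6860616, at the 3′ end of the gene, with a fold enrichment of 2.98, and at chr21:6928457-6947845, annotated to the 5′ UTR, with 1.27. The peak at 1.27 was among the weakest 2.89% of the DM list. More peaks in DM than in GM were also listed for 32.2% of the 12561 genes with a peak in either list.

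MEF2D was the only one of the 4 genes with a changed pair. Its peak, annotated to the 3′ UTR, covered 1315 bases in 9 exon blocks at chr3:14348678-14358662 in GM and 1225 bases in 8 blocks at chr3:14349609-14358662 in DM. All 1225 DM bases lay in the GM peak. Fold enrichment was 3.26 in GM and 1.98 in DM, 1.65 times lower in DM, while the input level of MEF2D had a ratio of 1.02. Of the 10239 pairs in the lists, 10.8% were lower in DM by this rule and 14.2% higher. A further DM peak of 329 bases at chr3:14359051-14359379 had a fold enrichment of 1.28 and no counterpart in GM. The blocks of the GM peak run from 19.3 to 29.3 kb after the start of the gene, so the annotation to the 3′ UTR names only part of where the peak lies.

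**Figure D4:**
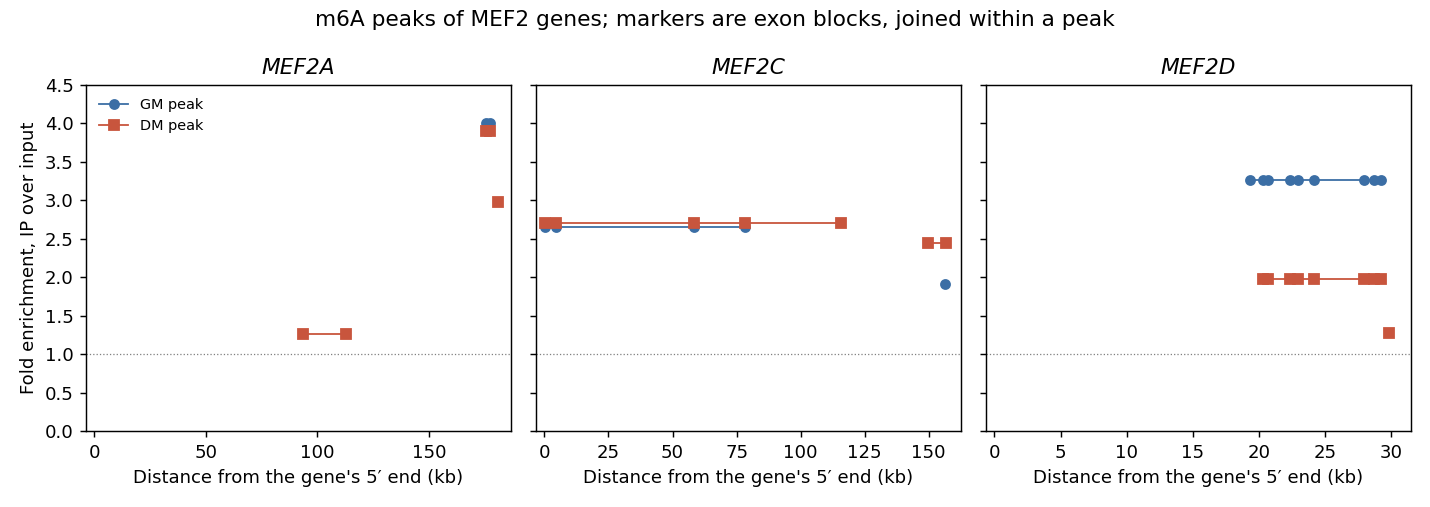
Fold enrichment (immunoprecipitated over input, linear axis) of each m6A peak of MEF2A, MEF2C and MEF2D against the distance of its exon blocks from the 5′ end of the gene in kb, with GM in blue circles, DM in red squares and blocks of a peak joined by a line. The MEF2D peak drops from 3.26 to 1.98, while the shared peak of MEF2A and the 5′ peak of MEF2C are at nearly equal values.

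MEF2B, at its level of about 0.5 FPKM, had 2 peaks in each list, with fold enrichments of 6.26 and 3.81 in GM and 3.73 and 7.45 in DM. Their p-values ranged from 6.6e-05 to 0.011, the weakest evidence of the family.

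The genes around MEF2 were described in 4 lists, namely partners and coactivators, repressors, upstream signalling, and muscle genes with described MEF2 control. All 4 lists were written with earlier results of these data known, so their counts are descriptions. A gene was called when limma gave an unadjusted p under 0.05 and the fold on the log2(FPKM + 1) scale was over 1.5. By this rule 4.9% of the 12302 tested genes were higher in DM and 6.97% lower, and their median log2(FPKM + 1) difference was -0.05. MYOG, MYF6, PPARGC1A and HDAC9 stand in more than 1 list, and SUV39H1, SIK1 and SRPK3 were not analysed here.

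Of the 28 partners and coactivators, 25 were tested, 3 were higher in DM and 2 lower, with a median difference of 0.08. The MyoD family, which binds DNA beside MEF2, was split. MYF5 stood at 12.6, 12 and 10.7 FPKM in GM and at 2.4, 2.41 and 1.95 in DM, 5.22 times lower (limma adjusted p = 1.2e-06). MYOD1 fell from 61.6 ± 3.94 to 24.8 ± 1.17 FPKM (SD, n = 3 each, limma adjusted p = 2.23e-06). MYF6 rose from 1.73 ± 0.313 to 3.89 ± 0.419 FPKM (limma adjusted p = 0.000388). Myogenin (MYOG), the factor of terminal differentiation, was already at 197 FPKM in GM and reached 243 in DM, a log2(FPKM + 1) difference of 0.31 that stayed under the fold limit (limma adjusted p = 0.00464).

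VGLL2, a muscle cofactor of the TEAD factors and MEF2, rose from 0.852 ± 0.0172 to 3.11 ± 0.25 FPKM (limma adjusted p = 1.02e-05), and NFATC4, a calcineurin-regulated factor, from 5.89 ± 0.159 to 10.1 ± 0.172 (limma adjusted p = 2.92e-05). The general coactivators EP300 and CREBBP, both histone acetyltransferases, were not called, with 11.1 and 12 FPKM for EP300 and 7.51 and 8 for CREBBP in GM and DM. The SWI/SNF subunit SMARCD3, at 22.9 and 32.2 FPKM, also stayed under the fold limit and passed it when FPKM was rescaled to TPM. MRTFA, a coactivator of SRF, averaged 14.1 and 9.28 FPKM and stayed under the limit, but passed it as lower in DM without the second DM library or with a pseudocount of 0.1.

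Of the 17 repressors of MEF2 and its partners, 16 were tested, with a median difference of -0.17. By the call rule 6 were lower in DM and none was higher. At an unadjusted limma p under 0.05 without the fold limit, 3 were higher and 8 lower. The share of all tested genes at p alone was not worked out, so nothing is read from these 2 counts. All 3 ID genes, which encode proteins that sequester the E-protein partners of MyoD, were among those that fell. ID1 stood at 15.3, 17.4 and 18.1 FPKM in GM and at 0.998, 1.27 and 1.52 in DM, 13.4 times lower (limma adjusted p = 3.73e-07). ID3 fell from 102 ± 4.42 to 30.5 ± 2.02 FPKM and ID2 from 45.6 ± 0.967 to 16.7 ± 1.19 (limma adjusted p = 5.15e-07 and 1.19e-06). TWIST1, a bHLH repressor of MyoD and MEF2, fell from 51.6 ± 7.47 to 20.1 ± 0.801 FPKM (limma adjusted p = 2.53e-05).

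The inhibitor of MyoD family proteins MDFI and the Notch effector HEY1 also fell, by 0.90 and 0.61 on the log2(FPKM + 1) scale, and HEY1 was not called without the second GM library or with size factors. The class IIa histone deacetylases, the direct repressors of MEF2, were not called. HDAC4 averaged 2.57 FPKM in GM and 2.38 in DM, HDAC5 9.72 and 9.66, and HDAC7 11.4 and 11.6. HDAC9 had the largest ratio of the 4, with 0.744 and 1.11 FPKM (log2(FPKM + 1) difference 0.28, limma adjusted p = 0.025).

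Of the 30 genes of signalling to MEF2 and class IIa HDACs, 28 were tested and none passed the call rule, with a median difference of -0.06. These are kinases and phosphatases that act on MEF2 or export its deacetylases from the nucleus. At an unadjusted limma p under 0.05 without the fold limit, 6 were higher in DM and 10 lower. As for the repressors, no share of all tested genes at p alone is given, and nothing is read from these counts. CAMK2D, a calcium/calmodulin-dependent kinase, averaged 21.5 and 31.3 FPKM (log2(FPKM + 1) difference 0.52, limma adjusted p = 0.000169), and CAMK2G 5.81 and 3.78 (difference -0.53, limma adjusted p = 0.0185). MAPK14, the main p38 kinase of muscle, measured 11.4, 10.6 and 10.6 FPKM in GM and 19.7, 12.4 and 11.6 in DM. The first DM library alone held the high MAPK14 value. MAPK11, another p38 kinase, was at 0.372 and 1.04 FPKM, a ratio of 2.8. Its log2(FPKM + 1) difference of 0.57 was just under the fold limit, since the added 1 shrinks changes at such low levels. CAMK2B, at 0.288 and 0.705 FPKM, was under the level tested. Leaving out 1 library called MAPK11 or CAMK2G in 5 of 6 cases, all but that of the first GM library, so the count of 0 depends on genes near the limit.

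Of the 30 muscle genes with described MEF2 control, 26 were tested, 15 were higher in DM and 1 lower, with a median difference of 0.76. Of those tested, 57.7% were higher, beside 4.9% of all tested genes. The list was written with earlier results of these data known, so nothing is read from that contrast. CKM, the muscle creatine kinase, stood at 9.23, 9.52 and 11.8 FPKM in GM and at 43.2, 39.7 and 44.7 in DM, a ratio of 4.17 (limma adjusted p = 1.76e-06). MYOM2, an M-band protein, rose from 8.06 ± 0.526 to 34.2 ± 0.73 FPKM and MYOZ2, a Z-disc protein that binds calcineurin, from 37.2 ± 6.93 to 145 ± 15 (limma adjusted p = 2.64e-07 and 9.85e-06). LMOD3, a nucleator of actin filaments, rose from 7.11 ± 0.101 to 28 ± 1.92 FPKM (limma adjusted p = 3.9e-07).

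PGAM2, the muscle phosphoglycerate mutase, was the 1 gene lower in DM, from 5.88 ± 0.923 to 2.74 ± 0.324 FPKM (limma adjusted p = 0.00044). Myoglobin (MB) averaged 5.07 and 4.85 FPKM and desmin (DES) 453 and 488, and neither was called. CPT1B, at 0.603 and 1.43 FPKM, was not called without the first DM, the first GM or the second GM library. The summed skeletal muscle and fibroblast markers were both higher in DM with groups that did not overlap, although most of their genes were not called higher, and their part in the list results was not tested.

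**Figure D5:**
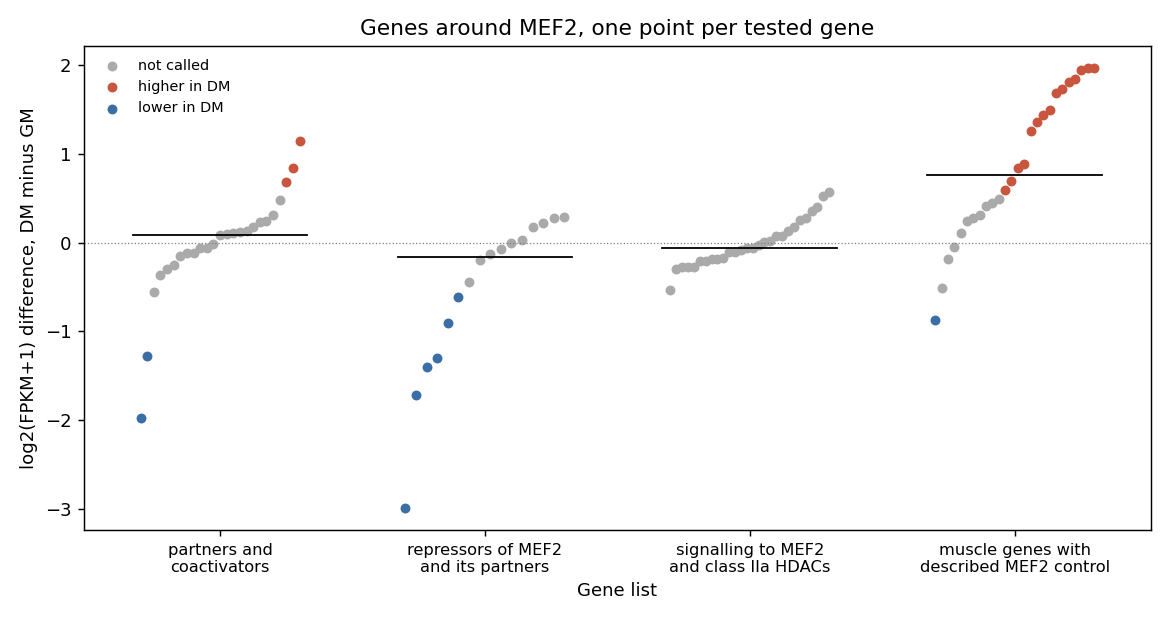
Difference in log2(FPKM + 1), DM minus GM, of each tested gene in the 4 lists, with genes called higher in red, called lower in blue and others in grey, and a black line at each list's median. The medians are 0.08, -0.17, -0.06 and 0.76 from left to right, against -0.05 over all tested genes.

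The m6A peaks of these lists gave 33 pairs for partners and coactivators, 14 for repressors, 25 for signalling and 19 for muscle genes. Over all 10239 pairs, 14.2% were higher and 10.8% lower in DM. Among partners 1 pair was higher (3.03%) and 4 lower (12.1%), the latter close to the share over all pairs, and the lower ones belonged to TEAD4 (fold enrichment 13.1 in GM and 3.73 in DM), SRF (3.63 and 1.72), MYOCD (9.8 and 5.32) and NFATC1 (2.28 and 1.32). The higher pair was that of PPARGC1A, and the mRNAs of PPARGC1A and MYOCD were under the level tested. Among repressors CABIN1 and MDFI were lower and SMAD3 higher. Signalling genes had 6 higher (24%) and 3 lower (12%) pairs, of which CSNK2A1, a casein kinase subunit, rose from 5.88 to 19.2. Among muscle genes CKM was lower, from 8.17 to 2.01, and PPARGC1A higher. With 1 value per group these pairs carry no error, and their names were given after their values were seen.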

How the data were processed

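RNA was measured in 12 libraries from bovine GM myoblasts and DM myotubes, 3 inputs and 3 m6A immunoprecipitations per group. Per the labels and the study's methods, poly(A) RNA was fragmented and made into strand-specific libraries. The authors aligned reads with HISAT2 to ARS-UCD1.2, and the submitters' processing notes also name cutadapt, fastp, HOMER, ChIPseeker and StringTie. The authors computed the deposited FPKM of the 6 inputs with StringTie for 18436 genes on 29 autosomes. The deposited peak lists came from exomePeak, run by the authors with the libraries of a group pooled. Their deposited fold enrichment is a linear ratio of immunoprecipitated over input signal. The deposited p-value of a peak, at most 0.05, is the authors' unadjusted value, and log10 columns of it and of its false discovery rate were also deposited. FPKM carries no read depth, so precision comes from the spread of 3 libraries.

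FPKM was analysed with limma 3.58.1 in R 4.3.3 on log2(FPKM + 1) and its variance trend. The 12302 genes averaging 0.5 FPKM or more over the inputs were tested. Called genes had an unadjusted p under 0.05 and a fold over 1.5. Adjusted p-values follow Benjamini and Hochberg across the 12302 genes. Peaks were paired in Python 3.11.15 with pandas 2.3.3. The 4 genes and all lists were chosen with earlier results of these data known, and the pairs of neighbouring genes within 5 kb were added after the levels had been seen. Genes are named as all 4 rows, up to 4 called genes of largest change per list and direction, up to 3 neighbours on each side and the 3 nearest profiles. Other names are given for contrast. Alternatives covered pseudocount, filter, scaling, replicate block, trend, thresholds, each library left out, and peak limits. The scripts were tested on simulated data. A marker gene of the lists is not reported here.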

Additional observations from a re-analysis of the deposited data

How the results depend on the processing

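The direction of MEF2C, MEF2A and ENSBTAG00000050008 held under the 13 alternatives run. Their log2 differences, each on the scale of its alternative, were 2.99 to 3.23, 0.25 to 0.51 and 3.04 to 3.29, with the upper ends from TPM. MEF2D ranged from -0.01 to 0.16. Rescaling to TPM moved the median over all genes from -0.05 to 0.06, and the share of called genes that were higher in DM from 41.3% to 55.1%, while the count went from 1461 to 1762. A fold over 2 left 507 genes and 3 partners and coactivators called, in place of 1461 and 5. Signalling genes called went from 0 to 2 with TPM (MAPK11 and CAMK2D), 1 with size factors (MAPK11) and 2 with a pseudocount of 0.1 (MAPK11 and CAMK2G). Leaving out 1 library gave 0 to 2 signalling genes, 5 to 6 partners, 5 to 6 repressors, 15 to 16 muscle genes and 1483 to 1519 genes in all. Same-numbered libraries did not deviate together (Pearson r across genes of -0.0792, -0.123 and -0.208). Differently numbered libraries gave -0.0594 to 0.187. Deviations from a mean of 3 libraries are tied to each other, so these values cannot tell whether same-numbered libraries share a culture or preparation. The replicate block gave 1473 called genes and changed no count of the lists. A ratio of fold enrichment over 2 left 1029 of 2566 changed peak pairs. Centring the ratios on their median turned the share of changed pairs that were higher from 56.8% to 47.5%, and the MEF2D pair was then 0.79 lower on the log2 scale in place of 0.72. With a fold enrichment of at least 2, MEF2D had no DM peak (1.98 was just under that limit), MEF2A had 2 DM peaks and MEF2C 1 GM peak. Peaks and FPKM are without read counts here, so counting error could not be given.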
